A study of Mus musculus with 6 samples.

Results

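Transcripts of the creatine kinase and adenylate kinase energy shuttle were examined in embryonic mouse hearts with and without a cardiomyocyte-specific deletion of Mrps5, a gene for a protein of the small subunit of the mitochondrial ribosome. The members were 9 genes chosen by symbol, out of 26191 genes in the table: the creatine kinases Ckm, Ckb, Ckmt2 and Ckmt1, the creatine supply genes Gatm, Gamt and Slc6a8, and the adenylate kinases Ak1 and Ak4. All 9 were found in the table. Control hearts carried Mrps5 fl/fl, both copies of the gene flanked by loxP sites and no Cre. Mutant hearts carried Mrps5 fl/fl; cTNT-Cre, the same floxed alleles with Cre recombinase driven by the promoter of cardiac troponin T, which is active in cardiomyocytes, so the other cells of the heart are not its target. Both groups were littermates collected at embryonic day 12, with 3 libraries in each group, made from total RNA of whole hearts from which ribosomal RNA had been removed. By the study's description each library came from pooled hearts.

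Creatine kinases pass the phosphate of ATP to creatine and back, so that phosphocreatine carries energy from the mitochondria, where ATP is made, to the myofibrils and ion pumps that spend it. Mitochondrial isoforms sit in the space between the mitochondrial membranes and cytosolic isoforms sit beside the users of ATP, and creatine itself is made by Gatm and Gamt or taken up by Slc6a8. Adenylate kinases interconvert ATP, ADP and AMP and form a parallel relay. In the developing heart the brain-type isoform Ckb is the early cytosolic form, and the muscle-type Ckm and the sarcomeric mitochondrial Ckmt2 become the abundant forms as the muscle matures.

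Among the 9 genes, the 3 mutant values of Ckm, of Gamt and of Ak1 all lay below the 3 control values. Mean levels in mutant hearts were 43.5% of control for Ckm, 66.8% for Gamt and 69.4% for Ak1. Ckmt2 and Ckb had lower means in mutant hearts, at 54.5% and 81.8% of control, but their mutant and control values overlapped. Gatm, Slc6a8 and Ak4 stood at 85.3%, 93.4% and 98.6% of control, also with overlapping values. Levels are FPKM, fragment counts scaled to transcript length and to library size, summed over the transcripts of a gene, and the groups were compared with limma on log2(FPKM + 1), a scale that understates the difference of genes with low FPKM. No member had an adjusted p under 0.05 (Benjamini-Hochberg over 13260 genes, limma). Unadjusted, 3 of the 8 members tested had a p under 0.05, all 3 lower in mutant hearts, against 15.0% of all genes tested in either direction, 9.43% lower and 5.57% higher. The count includes Ckm, which was tested only because its 3 controls reached 1 FPKM, so nothing is read from it. Among the 5 members with a mean of at least 5 FPKM, 2 had an unadjusted p under 0.05, Gamt and Ak1, against 14.5% of all genes at that filter. The adjusted threshold was passed by 0.083% of all genes, or 11 genes.

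**Figure D1:**
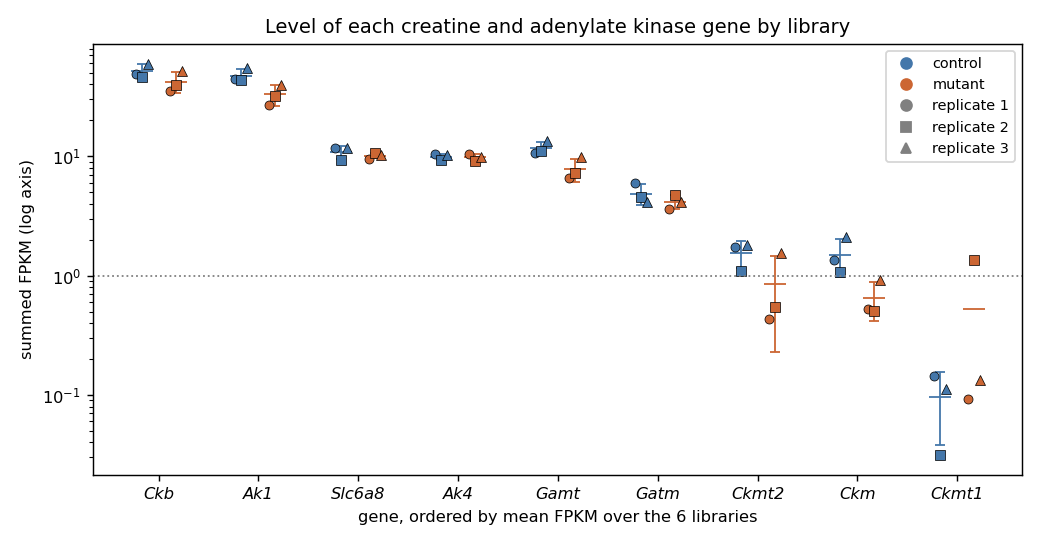
Summed FPKM of the 9 genes on a log axis, with 1 point per library (circle, square and triangle for replicates 1, 2 and 3), the group mean as a horizontal line and the SD as bars, and a dotted line at an FPKM of 1. Ckb and Ak1 lie above 25 FPKM in every library, Ckm lies above 1 in the 3 controls and below 1 in the 3 mutants, and the mutant Ckmt1 group has no SD bar because the SD exceeds the mean.

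Where values are listed by library, they follow the order of replicates 1, 2 and 3, and the last mutant value is that of the library labelled mutant replicate 3. The groups were checked first against the deleted gene and the tissue. Mrps5 FPKM was 9.65, 11.4 and 10.4 in the controls and 5.28, 7.41 and 10.4 in the mutants, so the library labelled mutant replicate 3 was at the control level (limma, log2 fold change -0.44 with standard error 0.19, adjusted p = 0.338). A summed level counts transcripts with and without the deleted part alike, so it does not show the extent of deletion in any mutant library. Of the 12 cardiomyocyte marker genes, all were detected in every library. At an unadjusted p under 0.05 (limma), 7 were lower in mutant hearts, against 9.43% of all genes, with 0 at the adjusted threshold. The list was uneven, with Tnnt2 at 66.1% of control. Myh6, Actc1 and Actn2 stood at 99.8%, 90.1% and 88.1%, with overlapping values. The summed FPKM of the 12 markers was 11140 to 13440 in controls and 8941 to 10840 in mutants, without overlap. Erythroid marker genes made up 12.2%, 13.3% and 12.0% of all FPKM in the controls and 23.5%, 10.8% and 22.0% in the mutants. Markers of neural cells and skeletal muscle, which also use creatine kinases, summed to no more than 7.89 and 8.36 FPKM in any library. Of the skeletal muscle list, Myod1, Myog, Myf5 and Myh3 were highest in mutant replicate 2, at 1.08, 2.16, 0.470 and 0.938 FPKM. Tnnt3, the other gene listed, was at 3.70 FPKM there. Liver markers summed to 147.9, 315.7 and 23.6 FPKM in the controls and 94.8, 189.0 and 141.3 FPKM in the mutants. How far liver or skeletal muscle RNA entered the members' values was not tested. In whole hearts, fewer cardiomyocytes and less RNA of a gene per cardiomyocyte cannot be told apart.

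Promoter sequences are shown for the 5 members with the lowest mutant means relative to control among those tested, so that these genes can be compared at their starts. They are RefSeq promoters on GRCm38.p6 (8 of the 9 members matched, Slc6a8 did not), each running 5′ to 3′ toward the gene, with the start closest to that of the gene's most abundant transcript. Each covers 200 bases before the start and 30 from it, except for Ckm, whose most abundant transcript starts 69 bases upstream of the RefSeq start and whose stretch of 211 bases begins 250 bases before the RefSeq start. Capitals mark the TATAA of a TATA box, the CCAAT box, the GC box with letters GGGCGG and the E-box with letters CANNTG, searched on both strands.
Ckm, chr7:19410844-19411054, forward strand: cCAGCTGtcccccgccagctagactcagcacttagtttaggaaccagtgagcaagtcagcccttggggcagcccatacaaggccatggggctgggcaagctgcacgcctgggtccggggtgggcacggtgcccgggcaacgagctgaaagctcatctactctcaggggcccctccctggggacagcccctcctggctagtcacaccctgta
Ckb, chr12:111672309-111672538, reverse strand: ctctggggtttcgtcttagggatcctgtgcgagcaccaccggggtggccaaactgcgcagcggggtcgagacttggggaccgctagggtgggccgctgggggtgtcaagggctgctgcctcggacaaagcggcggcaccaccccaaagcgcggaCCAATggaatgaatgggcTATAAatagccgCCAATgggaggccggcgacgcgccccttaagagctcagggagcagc
Ckmt2, chr13:91876856-91877085, reverse strand: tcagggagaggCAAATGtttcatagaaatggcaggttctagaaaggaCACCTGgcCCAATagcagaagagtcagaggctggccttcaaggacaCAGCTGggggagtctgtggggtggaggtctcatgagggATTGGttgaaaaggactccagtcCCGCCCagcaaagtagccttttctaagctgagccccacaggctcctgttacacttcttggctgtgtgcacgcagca
Gamt, chr10:80260983-80261212, reverse strand: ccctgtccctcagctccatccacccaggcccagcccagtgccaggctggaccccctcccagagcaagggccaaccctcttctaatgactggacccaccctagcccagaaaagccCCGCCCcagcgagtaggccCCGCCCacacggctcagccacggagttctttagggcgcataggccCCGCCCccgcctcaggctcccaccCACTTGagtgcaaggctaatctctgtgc
Ak1, chr2:32625237-32625466, forward strand: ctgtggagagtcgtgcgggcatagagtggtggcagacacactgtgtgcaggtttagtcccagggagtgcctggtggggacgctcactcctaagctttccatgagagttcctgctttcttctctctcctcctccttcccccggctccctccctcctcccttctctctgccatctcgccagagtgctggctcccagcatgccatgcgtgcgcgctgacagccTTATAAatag

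The 5 starts did not share one set of these letters. Ckm had TATAA 29 bases before its RefSeq start, past the end of the stretch printed and after the start of its most abundant transcript. Ckb had TATAA 28 bases before its start between copies of CCAAT. Ckmt2 and Gamt had no TATAA in their 300-base windows, and in Ak1 it appeared only after the start, on both strands as an overlapping pair. Gamt held 4 copies of GGGCGG in its window and Ckmt2 held 1. E-boxes, the letters bound by many muscle and non-muscle basic helix-loop-helix factors, numbered 4 in the Ckmt2 window, 1 each in those of Ckm, Gamt and Ak1, and none in that of Ckb. Across 32851 RefSeq promoter windows of the same length, TATAA was in 24.9%, the CCAAT box in 37.4%, the GC box in 35.7% and the E-box in 72.3%, so single matches are common. CpG dinucleotides numbered 22 in the Ckb window, 14 in Gamt, 10 in Ak1, 7 in Ckm and 4 in Ckmt2, with a median of 7 over all windows. Of the other members matched, Ak4 had 29, Gatm 22 and Ckmt1 4, so the counts of members with low mutant means lay within the range of the rest.

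Ckm (ENSMUSG00000030399) encodes the cytosolic muscle-type creatine kinase, which in mature muscle is held at the M-band of the sarcomere. Its FPKM was 1.35, 1.07 and 2.09 in the controls and 0.525, 0.506 and 0.928 in the mutants. All 3 mutant libraries were below all 3 controls, and the library labelled mutant replicate 3 was the nearest to them. This gave means of 1.50 ± 0.528 FPKM for controls against 0.653 ± 0.238 FPKM for mutants (SD, n = 3 each). Limma put the log2 fold change at -0.59 with standard error 0.19, p = 0.0137 and adjusted p = 0.223, and the exact permutation test over the libraries gave p = 0.1 (two-sided), the smallest that 3 against 3 libraries allow. Ckm met the filter of at least 1 FPKM in 3 libraries only through its 3 controls, so its presence among the tested genes already required it to differ. Without the library labelled mutant replicate 3 it stood at -0.70 with an adjusted p of 0.142 (limma). Without control replicate 3 it stood at -0.42 with an adjusted p of 0.423 (limma). The values came from 1 transcript, ENSMUST00000208710, while ENSMUST00000003643 is listed at 0 in every library.

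Ckb (ENSMUSG00000001270), the cytosolic brain-type isoform, was the most abundant of the 9 genes in both groups. Its FPKM was 49.3, 45.9 and 59.9 in the controls and 35.5, 39.8 and 51.6 in the mutants. Mutant replicates 1 and 2 were below every control, whereas the library labelled mutant replicate 3 stood between control replicates 1 and 3. Group means were 51.7 ± 7.29 FPKM for controls and 42.3 ± 8.34 FPKM for mutants (SD, n = 3 each). In limma a value of -0.29 on the log2 scale, with standard error 0.15, had p = 0.088 and adjusted p = 0.405, and the exact permutation p was 0.3. Without that library Ckb stood at -0.44 with an unadjusted p of 0.00919 and an adjusted p of 0.158 (limma). It stood at -0.18 without mutant replicate 1 and at -0.18 without control replicate 3, with an unadjusted p of 0.281 and 0.28. Of the 50-base words in its transcript, 21.9% also occur in the pseudogenes Ckb-ps1 and Ckb-ps2 or in Gm12892, so part of its level is uncertain.

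Ckmt2 (ENSMUSG00000021622) encodes the sarcomeric mitochondrial creatine kinase, which passes the phosphate of ATP made in the mitochondria to creatine. It was at 1.73, 1.10 and 1.82 FPKM in the controls and at 0.437, 0.546 and 1.55 FPKM in the mutants. Mutant replicates 1 and 2 were again below every control, and the library labelled mutant replicate 3 was above control replicate 2. Group means were 1.55 ± 0.391 and 0.844 ± 0.613 FPKM (SD, n = 3 each). The log2 difference of -0.50 had standard error 0.24, p = 0.0638 and adjusted p = 0.362 (limma), and the exact permutation p was 0.2. Leaving out that library gave -0.76, with an unadjusted p of 0.00284 and an adjusted p of 0.0889 (limma). In that fit only controls reached 1 FPKM, so nothing is read from these p-values. Without mutant replicate 1 or 2 the log2 difference was -0.35 or -0.40, with an unadjusted p of 0.204 or 0.18 (limma). With 0.1 added to all libraries it was -0.96. Of the mutant libraries, 1 reached 1 FPKM.

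Ckmt1 (ENSMUSG00000000308), the ubiquitous mitochondrial isoform typical of brain and epithelia, stayed near the lower end of the table. It was at 0.144, 0.0313 and 0.113 FPKM in the controls and at 0.0927, 1.36 and 0.134 FPKM in the mutants. It was above 1 FPKM in 1 library and did not pass the filter, so it was not tested. The high value of mutant replicate 2 came mostly from transcript ENSMUST00000078222, at 1.16 FPKM there and listed at 0 in the other libraries.

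Ckb supplied most creatine kinase transcripts, per unit of length, in every library. Its share of the summed FPKM of the 4 creatine kinase genes was 93.7% to 95.4% in controls and 94.3% to 97.1% in mutants. Ckm supplied 2.22% to 3.27% in controls and 1.20% to 1.71% in mutants, and these shares did not overlap. The shares of Ckmt2 did, at 2.29% to 3.28% in controls and 1.20% to 2.86% in mutants. The log2 ratio of Ckm to Ckb, formed with 1 added to each FPKM, was -4.41 ± 0.10 for controls and -4.70 ± 0.11 for mutants (SD, n = 3 each). Each mutant ratio was below each control ratio, a difference of -0.29, which was -0.78 with 0.1 added in place of 1. It is given as a description with no test, since no mutant library reached 1 FPKM for Ckm. The log2 ratio of Ckmt2 to Ckm, which has the same limit, was 0.04 ± 0.17 for controls and 0.12 ± 0.25 for mutants (SD, n = 3 each), with overlap and a difference of 0.08. The ratio of Ckmt2 to Ckmt1 is not compared, because Ckmt1 was below the filter and near 0 on the log2 scale in 5 of the 6 libraries.

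Of the creatine supply genes, the last enzyme of synthesis was the one with the largest difference. Gamt (ENSMUSG00000020150) methylates guanidinoacetate to creatine. Its FPKM was 10.7, 11.1 and 13.5 in the controls and 6.55, 7.20 and 9.80 in the mutants. The groups did not overlap, with the library labelled mutant replicate 3 once more the closest to the controls. This gave means of 11.8 ± 1.52 FPKM for controls against 7.85 ± 1.72 FPKM for mutants (SD, n = 3 each). Limma put the log2 fold change at -0.54 with standard error 0.15, p = 0.0066 and adjusted p = 0.178, and the exact permutation p was 0.1. Without that library it was -0.69 with an adjusted p of 0.0333 (limma). Leaving out the mutant library nearest to the controls widens the difference, so this adjusted p is not read as a call. Without control replicate 1 Gamt stood at -0.60 with an adjusted p of 0.445 (limma). Without mutant replicate 1 it was at -0.43 with an adjusted p of 0.379 (limma).

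Gatm (ENSMUSG00000027199) makes guanidinoacetate from arginine and glycine, the step before Gamt. It was at 5.93, 4.58 and 4.13 FPKM in the controls and at 3.64, 4.73 and 4.11 FPKM in the mutants. The values interleave, and the log2 fold change of -0.18 had a standard error of 0.14 (adjusted p = 0.585, limma). It was -0.059 with the summed erythroid marker level as a covariate, chosen after seeing the data, -0.06 without control replicate 1, -0.11 without mutant replicate 1 and -0.27 without control replicate 3. Slc6a8 (ENSMUSG00000019558), the creatine transporter of the cell membrane, was at 11.7, 9.28 and 11.7 FPKM in the controls and at 9.58, 10.6 and 10.3 FPKM in the mutants. All 3 mutant values lay inside the control range, and limma gave a log2 difference of -0.08 with standard error 0.11 and adjusted p = 0.763. This was -0.16 with libraries scaled to the same total and -0.021 with the erythroid covariate. It was -0.18 without control replicate 2, and -0.035, -0.032 and -0.046 without control replicate 1, control replicate 3 and mutant replicate 1.

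Of the adenylate kinases, the values of the cytosolic Ak1 separated the groups and those of the mitochondrial Ak4 overlapped, and the difference between them was not tested. Ak1 (ENSMUSG00000026817), the cytosolic form of muscle and red cells, was at 44.4, 43.5 and 54.6 FPKM in the controls and at 27.1, 32.2 and 39.7 FPKM in the mutants. Every mutant library was below every control. This gave means of 47.5 ± 6.16 FPKM for controls against 33.0 ± 6.35 FPKM for mutants (SD, n = 3 each). Limma put the log2 fold change at -0.52 with standard error 0.15, p = 0.00717 and adjusted p = 0.185, and the exact permutation p was 0.1. Without the library labelled mutant replicate 3, again the mutant nearest to the controls, it was -0.66, with an adjusted p of 0.0492 (limma), not read as a call. Without control replicate 1 it was -0.57 with an adjusted p of 0.456, and without mutant replicate 1 -0.39 with an adjusted p of 0.376 (limma). With the erythroid covariate it was -0.51 with an unadjusted p of 0.0327 and an adjusted p of 0.446 (limma).

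Ak4 (ENSMUSG00000028527), an adenylate kinase of the mitochondrial matrix, was level in the sum of its transcripts. Its FPKM was 10.4, 9.31 and 10.2 in the controls and 10.6, 9.08 and 9.83 in the mutants. Limma gave a log2 difference of -0.02 with standard error 0.09 and adjusted p = 0.945. Its transcripts were less even than their sum. ENSMUST00000106946 was at 5.90, 6.16 and 9.67 FPKM in the controls and at 9.61, 5.46 and 1.56 FPKM in the mutants. ENSMUST00000102780 was at 1.83, 3.15 and 0.478 FPKM in the controls, was listed at 0 in mutant replicate 1, and reached 3.09 FPKM in mutant replicate 2 and 7.63 FPKM for the library labelled mutant replicate 3. With the first of these alone in place of the sum, the Ak4 log2 fold change was -0.53 (adjusted p = 0.697, limma). In both groups the library highest in the first row was the lowest in the second, and how reads were divided between them was not tested. In its transcripts, 11.3% of the 50-base words also occur in the pseudogene Ak3l2-ps. Ak1 drew 93.9% of its summed FPKM from 1 transcript, ENSMUST00000113277.

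**Figure D2:**
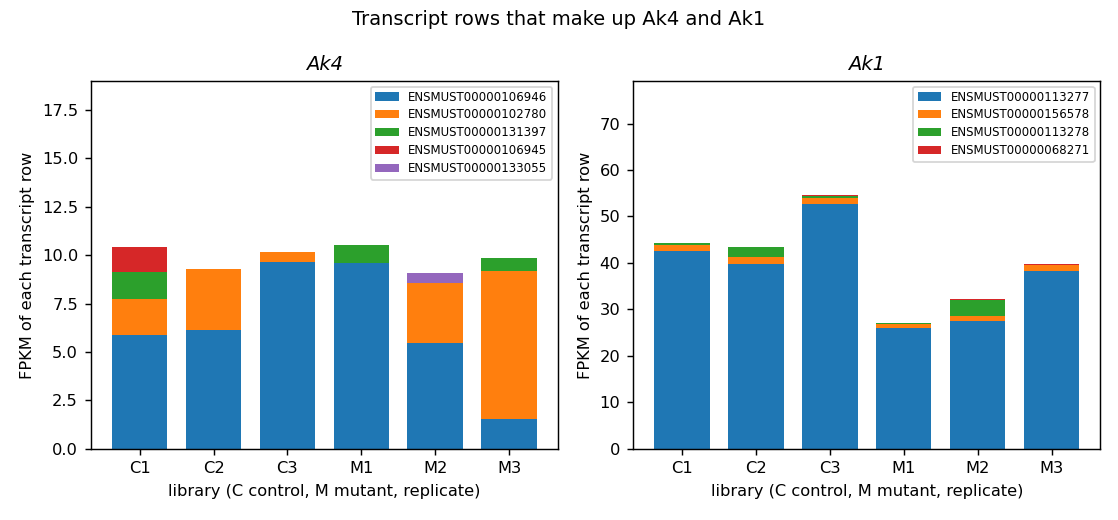
FPKM of each transcript row of Ak4 (left) and Ak1 (right) in the 3 control (C) and 3 mutant (M) libraries, stacked so that the bar height is the gene's summed FPKM. Ak4 totals lie between 9.08 and 10.6 FPKM in every library while its rows differ, and Ak1 is made up almost entirely of ENSMUST00000113277.

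Ordered by level, which FPKM allows because it is per length, the control hearts had Ckb and Ak1 at the top, then Gamt, Slc6a8 and Ak4, then Gatm, then Ckmt2 and Ckm, and last Ckmt1. Neighbours inside each of these groups lay within their spread of each other: Ckb at 51.7 ± 7.29 and Ak1 at 47.5 ± 6.16, Gamt at 11.8 ± 1.52 and Slc6a8 at 10.9 ± 1.38, Slc6a8 and Ak4 at 9.96 ± 0.575, and Ckmt2 at 1.55 ± 0.391 and Ckm at 1.50 ± 0.528 FPKM (SD, n = 3). In mutant hearts Gamt, at 7.85 ± 1.72 FPKM, came after Slc6a8 at 10.2 ± 0.531 and Ak4 at 9.82 ± 0.738 FPKM (SD, n = 3).

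Over the 8 members tested, the median log2 fold change was -0.40, against -0.02 over all 13260 genes, and all 8 were below 0, as were 55.0% of all genes. These are descriptions, since Ckm passed the filter only through its controls. Of the 8, 3 had lower values in mutant hearts without overlap (Ckm, Gamt and Ak1), against 13.0% of all genes. None had higher values without overlap, against 7.74% of all genes. For Ckm the lack of overlap was fixed by how it passed the filter, so nothing is read from that count.

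The members with low mutant values moved with the cardiomyocyte markers from library to library. The mean log2(FPKM + 1) of the 12 markers was 9.44 ± 0.10 for controls and 9.12 ± 0.14 for mutants (SD, n = 3 each), a difference of -0.32 (exact permutation p = 0.1). Against the control mean it stood at -0.46 and -0.33 in mutant replicates 1 and 2 and at -0.18 in the library labelled mutant replicate 3. Across the 6 libraries, Pearson's r with the marker mean was 0.971 for Ak1, 0.953 for Gamt, 0.946 for Ckm, 0.935 for Ckmt2 and 0.911 for Ckb. It was 0.662 for Slc6a8, 0.511 for Gatm and 0.156 for Ak4. These are descriptions over libraries that share the group difference and a common normalisation. With the summed erythroid markers, r ran from -0.680 for Gatm and -0.520 for Slc6a8, through -0.496 for Ak1, -0.404 for Gamt, -0.384 for Ckm, -0.311 for Ckb and -0.240 for Ckmt2, to 0.446 for Ak4.

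**Figure D3:**
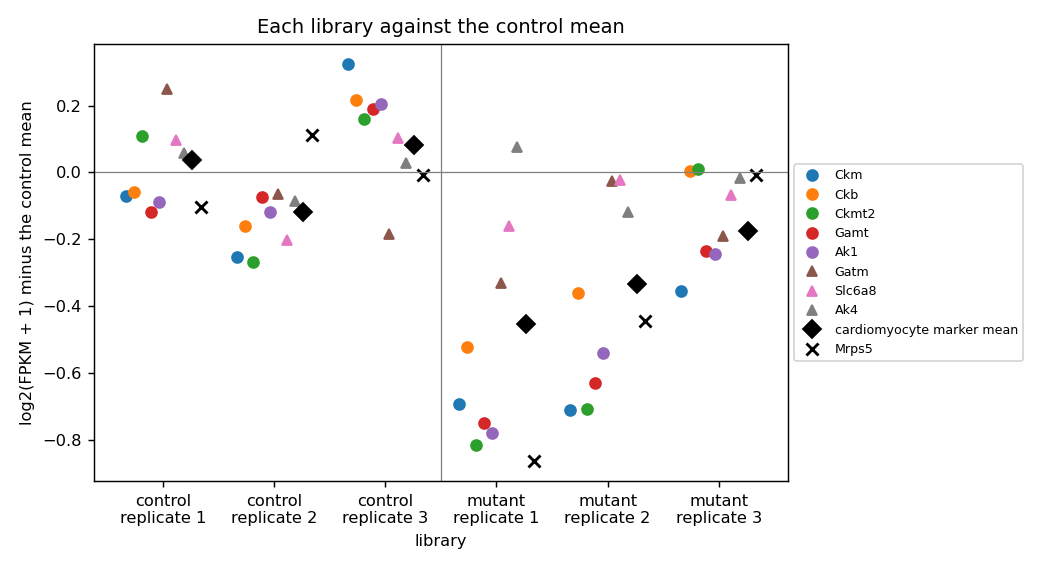
Log2(FPKM + 1) of 8 members, of the cardiomyocyte marker mean (diamonds) and of Mrps5 (crosses) in each library, minus the mean of the 3 controls. In mutant replicates 1 and 2 the members Ckm, Ckb, Ckmt2, Gamt and Ak1 (circles) lie below the marker mean, and in the library labelled mutant replicate 3 Ckb, Ckmt2 and Mrps5 are at the control mean.

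Each member was then expressed relative to the marker mean of the same library. The Ckm groups did not overlap, with the mutants at -0.27 on the log2 scale. For a gene near 1 FPKM this size rests on the value added: with 0.1 added in place of 1, Ckm went from -1.08 before to -0.76 after the markers were subtracted, and without control replicate 3 it was -0.14 after. Gamt and Ak1 stood at -0.22 and -0.20, and their groups now overlapped (exact permutation p = 0.2 for each). Ckb differed by 0.03 (exact permutation p = 0.6) and Ckmt2 by -0.18 (exact permutation p = 0.4), or -0.64 with 0.1 added. With 1 library left out Ckmt2 ran from -0.37 to -0.09, the lowest without the library labelled mutant replicate 3 and the highest without mutant replicate 2. On this scale Slc6a8 and Ak4 had all mutant values above all control values, at 0.24 and 0.30 (exact permutation p = 0.1 for each), and Gatm differed by 0.14 with overlap (exact permutation p = 0.5). Leaving out mutant replicate 1 moved Ak4 to 0.19, and with 1 library left out Gatm ran from 0.0061, without control replicate 3, to 0.25, without control replicate 1. Ckmt1 was below the filter and near 0 on the log2 scale in 5 of the 6 libraries, so on this scale its value is mostly that of the markers and it is not compared. When the most abundant transcript alone was taken for every gene, Ckm, Ckmt2, Gamt and Ak1 turned to 0.0042, 0.087, 0.031 and 0.039, with overlap for Ckm. Slc6a8 then stood at 0.53 (exact permutation p = 0.1), Ckb at 0.30 (p = 0.3) and Gatm at 0.41 (p = 0.5), while Ak4 was at 0.063 (p = 1.0) and its groups overlapped. Since Ckm and Ckmt2 have values from 1 transcript each, for these genes the turn lay in the marker mean. The part of the marker difference in the members' values was not tested beyond these comparisons.

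**Figure D4:**
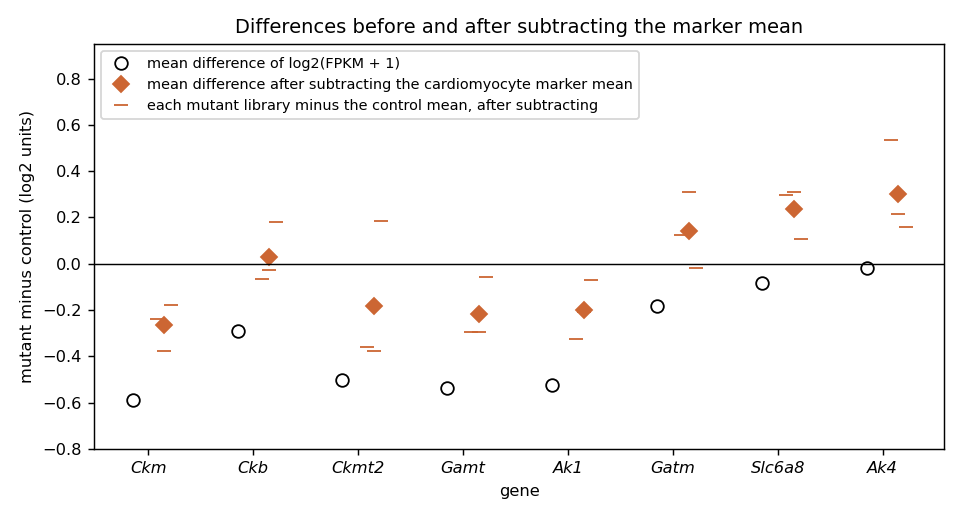
Mean difference between mutant and control hearts in log2(FPKM + 1) for 8 members (open circles), and the same after the cardiomyocyte marker mean of each library was subtracted (diamonds), with a dash for each mutant library minus the control mean. After subtraction Ckm, Gamt and Ak1 move from between -0.59 and -0.52 to between -0.27 and -0.20 with 1 added to FPKM, a step that for Ckm runs from -1.08 to -0.76 with 0.1 added, and Slc6a8 and Ak4 lie above 0 in all 3 mutant libraries.

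The wider set of nucleotide and phosphate genes, 38 genes in 5 lists of which 30 were tested, had a median log2 fold change of -0.02, as over all genes, with 3 genes lower and 2 higher at an unadjusted p under 0.05 and 0 at the adjusted threshold (limma). These 5 of 30 genes are 16.7%, near the 15.0% of all genes, so they are given as values and not as a result about the set. None of the 4 other adenylate kinases tested had an unadjusted p under 0.05. The most abundant, Ak6, a nuclear member of the family, was at 70.3 ± 6.51 (SD, n = 3) FPKM in the controls and 69.9 ± 6.29 (SD, n = 3) FPKM in mutant hearts. Nor did any of the 6 nucleoside diphosphate kinases tested, which pass phosphate between nucleotides. Nme2, the most abundant of them, was at 170.3 ± 15.2 and 166.9 ± 13.9 FPKM (SD, n = 3 each).

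In the exchange of ATP and ADP across the mitochondrial membranes, 1 of 5 genes tested had an unadjusted p under 0.05. Slc25a4, the heart and muscle form of the ADP/ATP carrier that feeds the mitochondrial creatine kinase, was at 360.0, 328.4 and 365.5 FPKM in the controls and at 273.2, 307.0 and 308.8 FPKM in the mutants. The mutant values lay below all controls (log2 fold change -0.25, standard error 0.10, adjusted p = 0.301, limma). With the erythroid covariate it was -0.19 with an unadjusted p of 0.139, and the unadjusted p was also over 0.05 without control replicate 1, control replicate 3 or mutant replicate 1, at 0.0889, 0.109 and 0.127. Of the phosphate and guanidino neighbours, 1 of 4 did: Ppa2, the mitochondrial inorganic pyrophosphatase, at 22.2, 24.4 and 23.5 FPKM in the controls and 15.8, 18.8 and 17.7 FPKM in the mutants (log2 fold change -0.40, standard error 0.09, adjusted p = 0.141, limma).

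Of the genes that remove or sense AMP, the product of adenylate kinase when ATP runs low, 11 were tested. An unadjusted p under 0.05 was found for 3 of them, with 1 at a lower mean and 2 at a higher mean. The AMP deaminases Ampd2 and Ampd3, which convert AMP to IMP, were the higher ones. Ampd2 was at 11.9, 13.0 and 10.3 FPKM in the controls and 14.9, 13.5 and 15.6 FPKM in the mutants (log2 fold change 0.30, standard error 0.10, adjusted p = 0.245, limma). Ampd3, the form of red cells, was at 4.56, 4.64 and 3.88 FPKM in the controls and 5.74, 5.40 and 6.64 FPKM in the mutants (log2 fold change 0.37, standard error 0.11, adjusted p = 0.205, limma). Both were highest in the first and last mutant libraries, those with the largest erythroid share. With the summed erythroid marker level as a covariate, Ampd2 stood at 0.22 and Ampd3 at 0.29, with unadjusted p of 0.112 and 0.0617 and adjusted p of 0.576 and 0.509 (limma). The most abundant transcript alone gave 0.17 for Ampd2 and 0.48 for Ampd3, with unadjusted p of 0.34 and 0.0518. For Ampd2 the unadjusted p was also over 0.05 with libraries scaled to the same total, without control replicate 3 and without the library labelled mutant replicate 3, at 0.0972, 0.0779 and 0.0556. Prkag3, a regulatory subunit of AMP-activated protein kinase known from skeletal muscle, was the lower one, at 2.61, 1.96 and 1.78 FPKM in the controls and 1.16, 0.979 and 1.13 FPKM in the mutants (log2 fold change -0.57, standard error 0.14, adjusted p = 0.158, limma). It stood at -0.88 when 0.1 was the value added.

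**Figure D5:**
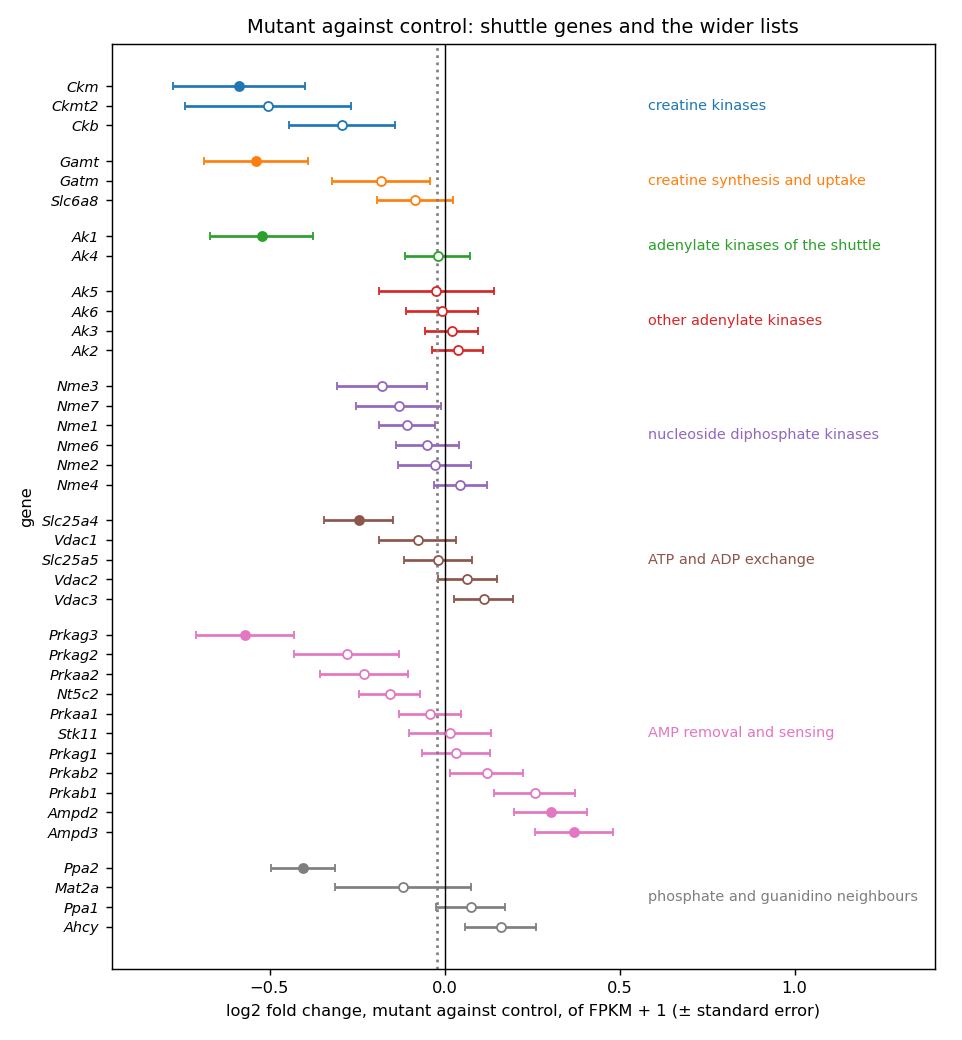
Log2 fold change, mutant against control, of FPKM + 1 for the 8 members tested (top 3 groups) and the 30 genes tested of the wider lists, with standard errors. Filled points have an unadjusted p under 0.05 (limma), the dotted line is the median of all genes at -0.02, and the points of Ckm, Gamt and Ak1 lie between -0.59 and -0.52.

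Finally, for the 3 members of highest mean FPKM the genes with the most similar pattern over the 6 libraries were listed, as a description. For Ckb these were Zfp947 (r = 0.996), the potassium channel subunit gene Kcng2 (r = 0.995) and the phosphatase inhibitor gene Ppp1r14c (r = 0.988). For Ak1 they were Pygb, a glycogen phosphorylase (r = 0.999), Mdh1, the cytosolic malate dehydrogenase (r = 0.998), and Myoz1, a Z-disc protein (r = 0.994). For Slc6a8 they were Pstk (r = 0.996), Ifi27 (r = 0.990) and Twf2 (r = 0.985). Kcng2, at 11.6, 9.78 and 14.5 FPKM in the controls and 6.69, 7.82 and 11.6 FPKM in the mutants, shows the pattern of Ckb: the lowest values in mutant replicates 1 and 2, and the library labelled mutant replicate 3 inside the control range.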

How the data were processed

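RNA of 3 control and 3 mutant pools of embryonic hearts was sequenced from strand-specific libraries after removal of ribosomal RNA. The authors deposited 1 table of FPKM values for 60776 transcripts. Bowtie2 2.2.8, HISAT2, StringTie 1.3.1, Cuffdiff 2.1.1 and mm9 are named in the submitters' processing notes. Their roles for these embryonic libraries and the annotation release are not given in the sources used here. The paper's RNA sequencing methods, which open with adult mice, name HISAT2 as the aligner. FPKM is not a count, so no count test was run and the depth behind each value is unknown. FPKM summed to 454692 to 515952 per library. Transcript values were summed by gene ID with the version removed, 1 was added, and log2 values were compared with limma 3.58.1 (R 4.3.3, empirical Bayes with a trend, two-sided) over the 13260 genes with FPKM of at least 1 in at least 3 libraries. Values relative to cardiomyocyte markers were tested by exact permutation of the 6 libraries, and ratios between creatine kinases are given as a description with no test. The script was tested on simulated data. The members and lists were chosen with earlier results of these data known. Genes named were every member, Mrps5, wider-list genes with an unadjusted p under 0.05 or, in lists with none, the most abundant gene, and the 3 genes most correlated with each of the 3 most abundant members. Transcripts were matched to GENCODE M21 by ID. Coordinates are given only for RefSeq promoters. Replicates are biological by the labels, and p-values measure the spread between these pools. The alternatives tried were another pseudocount, other filters, scalings and normalizations, no trend, the most abundant transcript alone, the replicate number as a block, each library left out, and the erythroid marker level as a covariate, the last chosen after seeing the data.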

Additional observations from a re-analysis of the deposited data

How the results depend on the processing

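Gamt and Ak1 were lower in mutant hearts with an unadjusted p under 0.05 under every alternative run. Their log2 fold changes ranged from -0.69 to -0.43 and -0.66 to -0.39. Their adjusted p (limma) ranged from 0.0333 to 0.445 and 0.0492 to 0.456, and passed 0.05 only without the library labelled mutant replicate 3 (-0.69 and -0.66). Ckm ranged from -1.08 to -0.42, with adjusted p from 0.142 to 0.495, as a description, since it was tested only through its controls. Mean FPKM of at least 5 gave no value for Ckm, Ckmt2, Gatm or Prkag3. Members with an unadjusted p under 0.05 numbered 3, and 5 with libraries scaled to the same total, 5 with replicate number blocked, 4 with quantile normalization (Ckb added), 2 with mean FPKM of at least 5, and 3 to 5 with 1 library left out, the additions otherwise being Ckb and Ckmt2. Each of these counts but that at mean FPKM of at least 5 includes Ckm, so nothing is read from them. Without the library labelled mutant replicate 3, Ckmt2 too reached 1 FPKM only in controls. Of all 13260 genes, 1990 had an unadjusted p under 0.05. With same-total scaling, the replicate block and quantile normalization there were 1992, 2221 and 2056. There were 1314 with mean FPKM of at least 5 (fewer genes tested) and 1216 to 2167 with 1 library left out, the lowest without control replicate 1. Genes with an adjusted p under 0.05 (limma) numbered 11, and 111 with libraries scaled to the same total, 6 without the trend, 6 with no filter, 4 with the most abundant transcript alone and 4 with the replicate block. Leaving out 1 library gave 5 to 270, with 6, 5 and 6 without control replicates 1, 2 and 3, 7 and 121 without mutant replicates 1 and 2, and 270 without the library labelled mutant replicate 3. Scaling to the same total moved the median of all genes from -0.02 to -0.09.

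Libraries of the same number correlated in their deviations from the group means at 0.217, 0.11 and 0.0901 for replicates 1, 2 and 3. Each library correlated best with its own number, a hint from the data and not from the design, and the block gave adjusted p of 0.146 for Ckm, 0.192 for Ckb, 0.246 for Ckmt2, 0.114 for Gamt and 0.105 for Ak1 (limma).

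Some values turned in direction, those relative to the markers with the most abundant transcript alone from as far as -0.27 (Ckm), and the others from near 0. The cause was not tested, except that Ckm and Ckmt2 have values from 1 transcript each and so did not move themselves when the most abundant transcript alone was used. With 1 library left out, the log2 ratio of Ckmt2 to Ckm differed by -0.060 to 0.18, below 0 without the library labelled mutant replicate 3 and without control replicate 3. Relative to the markers, Ckb ranged from -0.047 to 0.097 in the same way, below 0 without that library and without control replicate 1. With the most abundant transcript alone, values relative to the markers were 0.0042 for Ckm, 0.087 for Ckmt2, 0.031 for Gamt and 0.039 for Ak1. Ak4 was at 0.0038 with erythroid markers left out, and at -0.068 to 0.031 with 1 library left out, above 0 without control replicate 1 and without mutant replicate 2. Nme2 was at 0.034 with the erythroid covariate, 0.019 with the most abundant transcript alone, and -0.078 to 0.042 with 1 library left out. Ak6 was at 0.055 with that covariate, 0.018 with erythroid markers left out, and -0.081 to 0.068 with 1 library left out.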
